A study of Mus musculus with 6 samples.

Results

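Guanylate-binding proteins (GBPs) and immunity-related GTPases (IRGs) were followed in tumor-associated macrophages (TAMs). The group comprised 10 of the 39179 genes in the count table and was taken by gene symbol. Gbp2, Gbp3, Gbp4, Gbp5 and Gbp7 stood for the GBPs, and Irgm1, Irgm2, Igtp, Iigp1 and Ifi47 for the IRGs. TAMs were sorted from subcutaneous Braf-mutant melanomas in C57BL/6 mice, hosts of 8 weeks of age. The tumors had been seeded either with wildtype tumor cells (competent tumors, 3 libraries of TAMs) or with Ptgs1/Ptgs2 deficient tumor cells (deficient tumors, 3 libraries of TAMs), which lack the cyclooxygenases needed to make prostaglandins. The comparison asks how macrophages differ when the tumor cells cannot make prostaglandins. Each library came from 800 pg of RNA of pooled tumors. The edit was made by CRISPR in the cell line, so that the macrophages carried the unedited host genome throughout. The sort kept live CD45+ CD11b+ F4/80+ cells that were NK1.1-, Ly6G- and Ly6C-negative or dim.

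Both families are GTPases that mouse macrophages make in large amounts when interferon signals reach them, above all interferon-gamma. GBPs are relatives of dynamin that assemble on the membranes of vacuoles holding bacteria or parasites and on bacteria in the cytosol, and they assist the caspase-11 and inflammasome pathways. Among the IRGs, Irgm1, Irgm2 and Igtp (also named Irgm3) are regulators that sit on host membranes, and Iigp1 (Irga6) and Ifi47 (Irgd) belong to the effectors that are loaded onto pathogen vacuoles with help from the machinery that conjugates ATG8 proteins to lipid.

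Interferons act on genes of this kind through short promoter elements, so the stretch around a match to the interferon-stimulated response element (ISRE) is printed for the members that held one. An ISRE can be bound by IRF factors, and the gamma-activated site (GAS) is the other element through which interferon-gamma acts. RefSeq promoter windows of the GRCm38.p6 assembly, from 250 bases before to 50 bases after the gene start, were found for 8 of the 10 members, the exceptions being Gbp4 and Iigp1. The ISRE was searched on both strands as TTTC, any 2 bases, TTTC, and the GAS as TTC, any 3 bases, GAA. An ISRE match was present for 7 of these 8 genes, and Ifi47 had none in its window. Of all 27025 genes with a window 3.99% held a match. A GAS match was present for 4 of the 8 (Gbp5, Gbp7, Igtp and Irgm2), against 9.55% of all genes with a window. The Gbp5 window is that of the RefSeq gene Gbp5, whereas the identifier of the row counted as Gbp5 belongs to Gbp2b in GENCODE M21, whose window held an ISRE match and no GAS match. In the stretches below the capitals mark ISRE matches and, in Irgm2 and Igtp, the GAS match before them.

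Gbp2: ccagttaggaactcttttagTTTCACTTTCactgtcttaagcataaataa
Gbp3: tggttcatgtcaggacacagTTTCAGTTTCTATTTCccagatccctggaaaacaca
Gbp5: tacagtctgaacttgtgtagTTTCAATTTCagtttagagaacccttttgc
Gbp7: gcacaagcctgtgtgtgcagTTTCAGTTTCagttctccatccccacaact
Irgm1: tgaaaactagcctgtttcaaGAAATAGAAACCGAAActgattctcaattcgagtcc
Irgm2: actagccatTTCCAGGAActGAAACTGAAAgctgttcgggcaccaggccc
Igtp: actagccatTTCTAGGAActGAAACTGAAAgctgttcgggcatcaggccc

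These stretches lie at chr3:142620584-142620633 (Gbp2, + strand), chr3:142559979-142560034 (Gbp3, +), chr3:142496749-142496798 (Gbp5, +), chr3:142530263-142530312 (Gbp7, +), chr11:48871415-48871470 (Irgm1, - strand), chr11:58214893-58214942 (Irgm2, +) and chr11:58199502-58199551 (Igtp, +). The runs of ISRE capitals began between 30 bases (Irgm1) and 165 bases (Gbp5) before the RefSeq start, and those of Gbp3 and Irgm1 each held 2 overlapping matches. In Irgm2 and Igtp a GAS match ended 2 bases before the ISRE match. The same arrangement was found in 5 of the 32851 windows (0.0152%), those of Igtp, Irgm2, Tgtp1, Tgtp2 and Gm12185. Exons of Gm12185 overlap the 3′ end of Tgtp1, so the 5 windows need not be separate occurrences. The windows of Igtp and Irgm2, which are neighboring genes, were aligned without gaps at the best single offset. They had the same base at 184 of 270 aligned positions (68.1%), which understates their likeness where bases are shifted by a gap. A match is a run of letters and was not tested as a binding site.

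The libraries held between 4431184 and 8760679 counts. They differed widely from each other, with Pearson correlations across genes of 0.405 to 0.722 and a common biological coefficient of variation of 1.26. Of the 8793 genes that passed the filter on low counts, 6.62%, 21.6% and 19.6% had 0 counts in competent libraries 1 to 3, and 17.2%, 3.40% and 7.24% in deficient libraries 1 to 3. With edgeR's quasi-likelihood test, 14 genes rose and 5 fell at a Benjamini-Hochberg adjusted p of 0.05 or lower and an absolute log2 fold change of 1.5 or more. The edited genes do not test the labels here, since only the tumor cells were edited. Ptgs1 had 197, 397 and 465 counts against 110, 237 and 206 (edgeR adjusted p = 0.962), and Ptgs2 had 80, 323 and 465 against 55, 451 and 93 (edgeR adjusted p = 0.9995). All 11 macrophage markers passed the filter. Their summed level was 16609.9, 17902.5 and 6433 CPM (counts scaled to effective library size by TMM) in competent tumors and 21266, 21138.5 and 25329.5 in deficient tumors. The quasi-likelihood test called 0 of the 11. At an unadjusted p under 0.05, 5 of them were higher in deficient tumors and 0 lower, against 5.00% of all tested genes in the higher direction. In every deficient library 6 of the 11 were higher than in every competent library, as were 970 of the 8793 genes.

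Transcripts of most members were more abundant on average in TAMs of deficient tumors, but the libraries of a group spread so widely that no member tested passed the threshold. The group means of Iigp1 were 2.73 CPM in competent and 61.5 CPM in deficient tumors, those of Igtp 10.8 CPM and 46.8 CPM, while Gbp7 stood at 55.2 CPM and 64.9 CPM. Gbp2 and Irgm1 had at most 1 count in any competent library. The filter kept 7 of the 10 members. The edgeR quasi-likelihood test called 0 of them, where 0.216% of all tested genes were called. At an unadjusted p under 0.05 the count was again 0 of 7, against 5.00% of all tested genes in the higher direction. The edgeR likelihood ratio test, DESeq2 and limma voom each called 0 members and each put 1 of the 7 at an unadjusted p under 0.05. Igtp and Iigp1, 2 of the 10, were higher in every deficient library than in every competent library, as were 8.03% of the 13368 genes with a count (1074) and 970 of the 8793 that passed the filter. The ratio of group means, on the log2(CPM + 1) scale, lay above 0 for 9 of the 10 members and below 0 for Gbp4. Its median over the 10 was 1.82 on the log2 scale, against 0.02 for the same ratio over all tested genes. The median fitted log2 fold change was 1.74 for the 7 tested members and 0.02 for all tested genes. The value of 1.82 became 1.07 without Ptgs-deficient replicate 3. Between libraries of a group, the median log2(CPM + 1) of the 10 members had a pooled SD of 1.32. The median of the values that limma voom fitted to the 10 without the filter was 3.23, and with the filter limma voom put the median of all tested genes at 0.39. Gbp2 had the highest of the 10 ratios. Replacing its ratio by its fold over a floor of 3 counts per library leaves the median at 1.82 by rank alone. P-values measure the spread between these 6 pools of tumors, and in bulk RNA fewer cells of a type and less RNA per cell cannot be told apart.

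**Figure D1:**
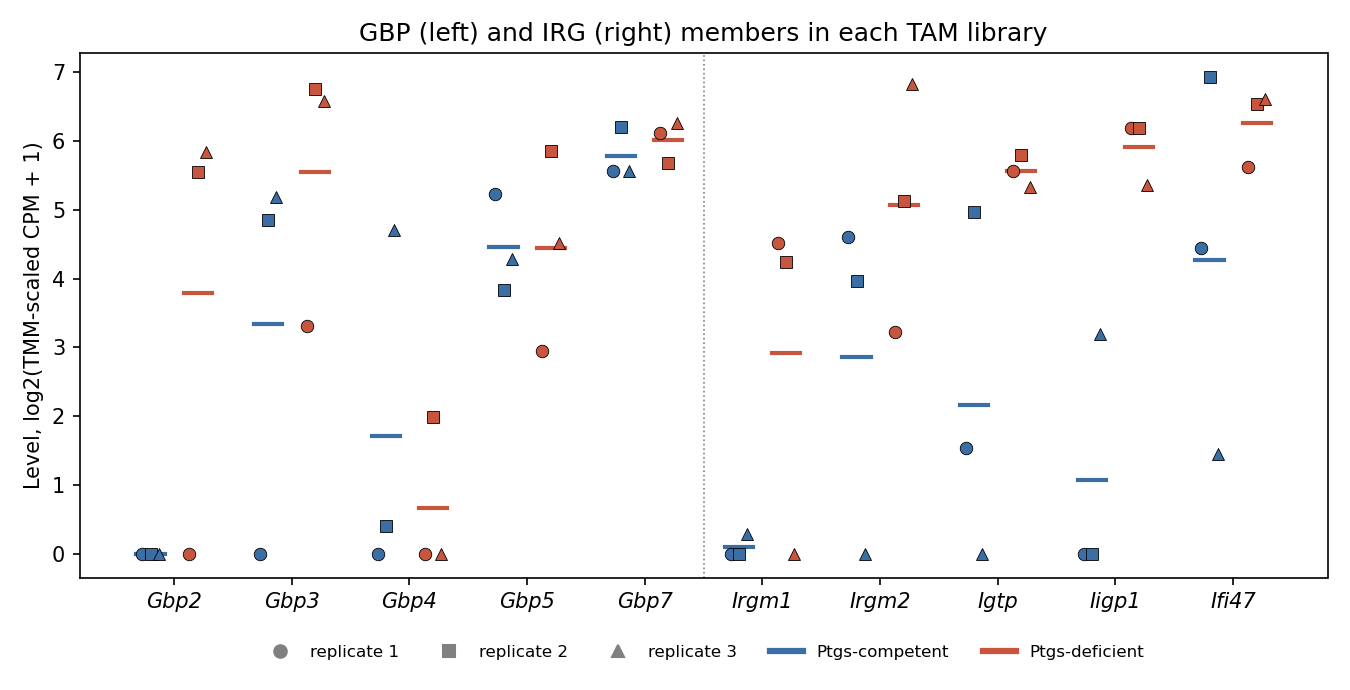
Level of each member in every TAM library, as log2 of TMM-scaled CPM plus 1, with blue for Ptgs-competent and red for deficient libraries, 1 symbol shape per replicate number and a short line at the mean of the 3 log2 values. Points at 0 are libraries without a count, and Igtp and Iigp1 are the members whose red points all lie above the blue ones.

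Detection itself varied between libraries. Competent libraries 1 to 3 held counts for 5, 7 and 7 of the 10 members, and deficient libraries 1 to 3 for 8, 10 and 8. Deficient library 2, which was also the deepest, was the only one with a count for every member. Gbp5, Gbp7 and Ifi47 were counted in all 6 libraries. The other 7 members had 0 counts in at least 1 library, as did 63.0% of the 13368 genes with a count and 44.4% of the tested genes. Moreover, 6 of the 10 members had 0 counts in a library beside 100 or more in another library of the same group, against 27.9% of the genes with a count and 30.2% of the tested genes. A count of 0 allows up to 3 counts, or 0.357 to 0.647 CPM depending on the library, and covers counting error only.

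Gbp7 varied least over the 6 libraries. This GBP, which has been linked to the assembly of the NADPH oxidase, maps to chromosome 3 (142530342 to 142550149, GRCm38). It had 291, 443 and 216 counts in competent tumors and 374, 423 and 368 in deficient tumors. The groups overlapped, with levels of 55.2 ± 15.1 CPM and 64.9 ± 13.2 CPM (SD, n = 3 each). The log2 fold change amounted to 0.23 ± 0.64 (SE; edgeR adjusted p = 0.9995).

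Gbp2, a GBP that coats pathogen vacuoles, was detected in 2 of the 6 libraries. It maps to chromosome 3 (142620602 to 142638008). It had 0 counts in each competent library and 0, 384 and 271 counts in deficient tumors. The groups thus met at 0 and were otherwise apart. Its level in the deficient group was 33.9 ± 29.8 CPM (SD, n = 3). That mean was 63.0 times the mean floor of 3 counts per library, and so at least 63.0 times a competent level no higher than the floor. Gbp2 did not pass the filter and was not tested with the rest. In a fit of every gene with a count its edgeR adjusted p was 0.0484 and it was the only member of 10 called there, where 1.89% of all genes were called, but a fitted fold against a group at 0 depends on the prior count and is not given.

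Gbp3 (chromosome 3, 142560026 to 142573209) was, unlike Gbp2, also counted in competent tumors. It had 0, 170 and 165 counts in competent tumors and 49, 902 and 460 in deficient tumors. Deficient libraries 2 and 3 were the highest, and the first library of that group lay below 2 of the competent libraries. The levels were 21.2 ± 18.7 CPM and 70.5 ± 53.7 CPM (SD, n = 3 each) and the log2 fold change 1.74 ± 1.57 (SE; edgeR adjusted p = 0.9995). With 1 library left out it ranged from 1.16 to 2.41, and it was 4.91 with limma voom. Of the 50-base words in the last 500 bases of its transcripts, 3.25% also occur in Gbp7.

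The row named Gbp5 carries an identifier that the later GENCODE M21 annotation gives to Gbp2b (chromosome 3, 142594847 to 142619179), another GBP on the same chromosome as Gbp5. The row cannot be assigned between the 2 genes here. Gbp5 itself, known for promoting NLRP3 inflammasome assembly, lies at 142496934 to 142522344 in RefSeq. The row had 230, 81 and 86 counts in competent tumors and 37, 477 and 106 in deficient tumors. The lowest and the highest values both came from the deficient group. The levels were 22.8 ± 12.3 CPM and 28.5 ± 25.7 CPM (SD, n = 3 each) and the log2 fold change 0.32 ± 1.33 (SE; edgeR adjusted p = 0.9995), which turned to -0.67 without Ptgs-deficient replicate 2.

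Gbp4 lies apart from the other members named Gbp, in the second GBP cluster on chromosome 5 (105115767 to 105139586). It had 0, 2 and 117 counts in competent tumors and 0, 25 and 0 in deficient tumors. Most of its counts came from competent library 3 and the rest mainly from deficient library 2, and the groups overlapped. Its levels were 8.52 ± 14.5 CPM and 0.992 ± 1.72 CPM (SD, n = 3 each), and it did not pass the filter. In the last 500 bases of its transcripts 19.4% of the 50-base words also occur in Gbp6, Gbp8, Gbp9, Gbp10 or Gbp11, so reads can have been lost or shared.

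Among the regulatory IRGs, Igtp showed a separation of the groups. It maps to chromosome 11 (58199556 to 58207591). It had 12, 185 and 0 counts in competent tumors and 255, 459 and 189 in deficient tumors. Every deficient library, at 39.1 to 54.7 CPM, lay above the highest competent library, at 30.4 CPM. The levels were 10.8 ± 17.0 CPM and 46.8 ± 7.78 CPM (SD, n = 3 each). The log2 fold change was 2.12 ± 1.76 (SE; edgeR adjusted p = 0.9995), and with 1 library left out it ranged from 1.604 to 5.55, the highest being without Ptgs-competent replicate 2.

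Irgm2 (chromosome 11, 58199618 to 58222782) overlaps Igtp in the GENCODE M21 gene models. It had 147, 89 and 0 counts in competent tumors and 46, 286 and 545 in deficient tumors. Here the groups overlapped, because deficient library 1 fell between the competent libraries. The levels were 12.7 ± 11.8 CPM and 51.7 ± 54.4 CPM (SD, n = 3 each) and the log2 fold change 2.03 ± 1.70 (SE; edgeR adjusted p = 0.9995). With 1 library left out it ranged from 0.75 (without Ptgs-deficient replicate 3) to 2.82. The last 500 bases of Irgm2 and Igtp shared no 50-base word with another gene.

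Irgm1 (chromosome 11, 48861968 to 48871683), a regulator needed for control of intracellular bacteria, was nearly unread in the competent group. It had 0, 0 and 1 counts there and 120, 150 and 0 in deficient tumors. The third deficient library therefore met the competent ones. Its level in the deficient group was 13.3 ± 11.7 CPM (SD, n = 3). Summed over libraries, 270 counts stood against 1, a scaled ratio of 246 with an exact 95% interval of 43.9 to 9769 that covers counting error only. Against a floor of 3 counts per library, as used for Gbp2, the fold of the group mean was 24.6. Irgm1 did not pass the filter.

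Iigp1, an effector that coats the parasite vacuole, came closest to the threshold of the members tested. It maps to chromosome 18 (60376027 to 60392634). It had 0, 0 and 38 counts in competent tumors and 395, 606 and 194 in deficient tumors. The lowest deficient library held 40.1 CPM and the highest competent library 8.19 CPM. The levels were 2.73 ± 4.73 CPM and 61.5 ± 18.5 CPM (SD, n = 3 each) and the log2 fold change 4.50 ± 2.02 (SE; edgeR adjusted p = 0.566). Over the alternatives its adjusted p ranged from 0.0606 to 0.797 with a positive fold change in each, the lowest being without Ptgs-competent replicate 3. The log2 fold change ranged from 3.91 to 11.60, and was 7.61 with limma voom and 8.43 with a replicate block. The value of 11.60, also without Ptgs-competent replicate 3, is against libraries at 0 counts and depends on the prior count.

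Ifi47 (chromosome 11, 49076587 to 49096974), the other effector, was counted in all 6 libraries but spread widely. It had 131, 739 and 8 counts in competent tumors and 264, 776 and 469 in deficient tumors. Competent library 2 was the highest of all, at 121 CPM, and competent library 3 the lowest, at 1.72 CPM. The levels were 48.0 ± 64.2 CPM and 79.2 ± 27.0 CPM (SD, n = 3 each) and the log2 fold change 0.72 ± 1.13 (SE; edgeR adjusted p = 0.9995). With 1 library left out it ranged from 0.22 (without Ptgs-competent replicate 3) to 2.80 (without Ptgs-competent replicate 2). Of the 50-base words near its 3′ end 4.54% also occur in Olfr56, whose gene overlaps it.

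**Figure D2:**
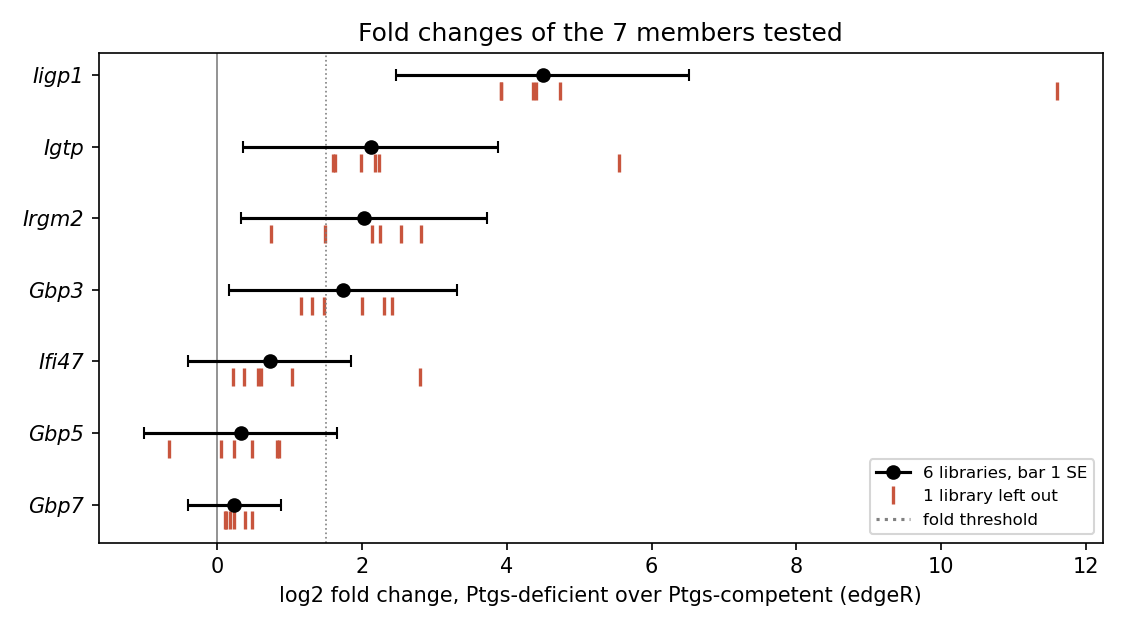
Fold changes of the 7 members that passed the filter, on the horizontal axis as log2 of deficient over competent tumors. Black points and bars give the edgeR estimate and 1 SE from 6 libraries, red ticks the estimate with each library left out in turn, and the dotted line the fold threshold of 1.5. The estimates run from 0.23 (Gbp7) to 4.50 (Iigp1), and the tick of Iigp1 at 11.60 compares with competent libraries that all had 0 counts and depends on the prior count.

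A 3′ tag count does not scale with transcript length, so CPM levels can be set side by side between genes, within the limits given above for Gbp4, whose reads can be lost to paralogs, and for the row named Gbp5. In the competent group Gbp7 (55.2 CPM) and Ifi47 (48.0 CPM) were highest, followed by Gbp5 (22.8 CPM), Gbp3 (21.2 CPM), Irgm2 (12.7 CPM), Igtp (10.8 CPM), Gbp4 (8.52 CPM) and Iigp1 (2.73 CPM). In the deficient group the order was Ifi47 (79.2 CPM), Gbp3 (70.5 CPM), Gbp7 (64.9 CPM), Iigp1 (61.5 CPM), Irgm2 (51.7 CPM), Igtp (46.8 CPM), Gbp2 (33.9 CPM), Gbp5 (28.5 CPM), Irgm1 (13.3 CPM) and Gbp4 (0.992 CPM). In both groups each gene's range over libraries overlapped that of its neighbor in the order.

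Summed over each family, the IRGs separated the groups and the GBPs did not. The 5 IRGs added up to 46.2, 166 and 10.1 CPM in competent tumors and to 197, 271 and 289 CPM in deficient tumors (74.2 ± 81.7 and 252 ± 48.8, SD, n = 3 each). The 5 GBPs added up to 83.0, 114 and 126 CPM and to 83.9, 263 and 249 CPM (108 ± 22.2 and 199 ± 99.8, SD, n = 3 each). Deficient library 1 was thus at the competent level for GBPs and above it for IRGs. Gbp7 alone made up 55.9%, 63.6% and 37.0% of the GBP sum in competent tumors, and 81.3%, 19.1% and 30.5% in deficient tumors. Competent library 3, with the lowest IRG sum, also had the lowest macrophage marker sum, and the part of that in the result was not tested. Whether the 2 families differed in their change was not tested.

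**Figure D3:**
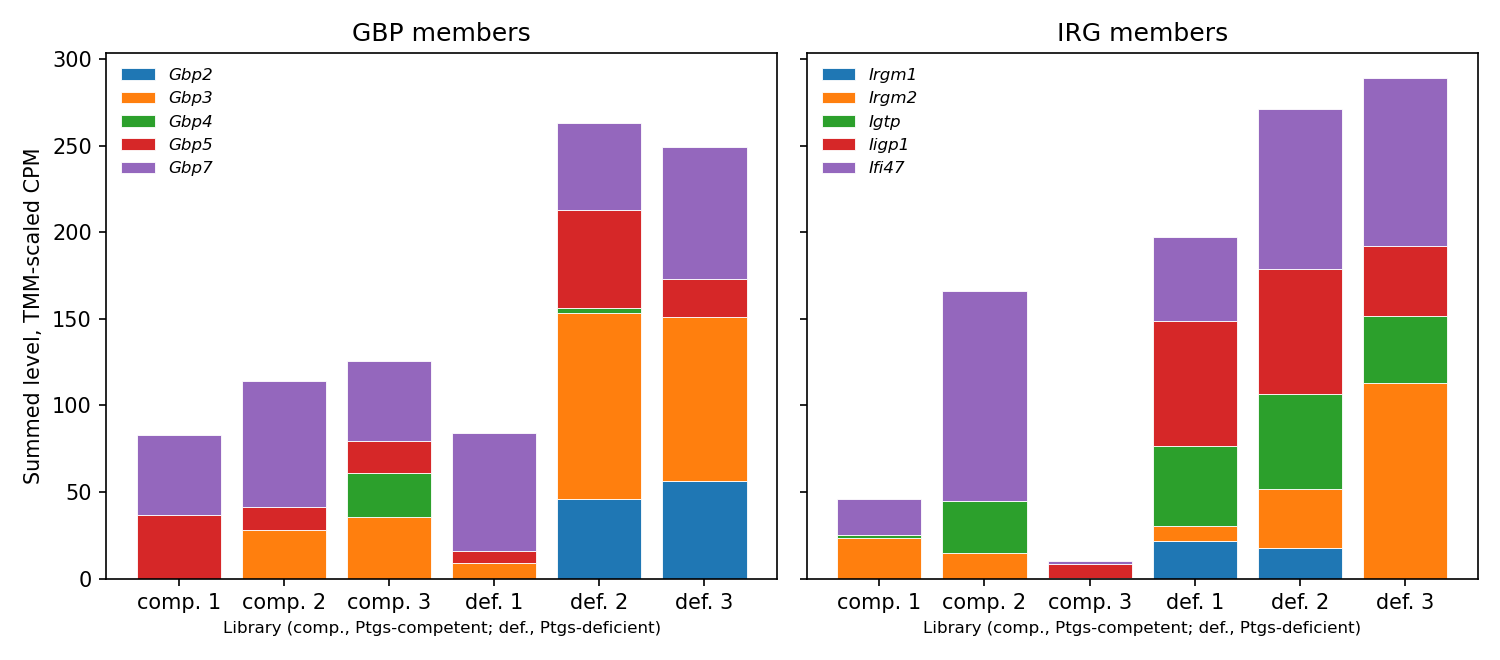
Summed level of the 5 GBP members (left) and the 5 IRG members (right) in each library, in TMM-scaled CPM on a linear axis from 0, stacked by gene. The IRG bars reach 10.1 to 166 CPM in competent tumors and 197 to 289 CPM in deficient tumors, while the GBP bar of deficient library 1 (83.9 CPM) is as low as that of competent library 1 (83.0 CPM).

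Summed markers of other cells also stood at unlike levels in the groups. Of 14 NK and T cell markers, 8 had 0 counts in every library (Ncr1, Gzmb, Prf1, Cd3e, Cd3g, Cd8a, Cd4 and Trac). The rest summed to 2.23 to 2.80 CPM in competent tumors and to 17.2 to 31.6 CPM in deficient tumors, mainly through Klrk1 (0, 0 and 0 against 144, 36 and 78 counts) and Gzma. Fibroblast and endothelial markers, with 8 of 9 detected, summed to 260 to 442 CPM against 55.5 to 85.2 CPM. Melanoma cell markers, with 7 of 10 at 0 (among them Mlana, Pmel, Dct, Tyr and Sox10), summed to 126 to 619 CPM against 58.4 to 71.2 CPM. That sum was carried by Sparc, which stromal cells also make (mean 301.9 CPM against 25.7 CPM), while Mitf (0.853 CPM against 24.4 CPM) and Braf (5.96 CPM against 14.8 CPM) had higher means in deficient tumors. Neutrophil markers, with 9 of 12 detected, summed to 621 to 724 CPM against 452 to 532 CPM. S100a8 and S100a9 made up most of the competent sum, Retnlg (mean 32.1 CPM against 138.9 CPM) and Csf3r (21.04 CPM against 43.3 CPM) had higher means in deficient tumors, and Ly6g was at 0. Dendritic cell markers, with 4 of 8 detected, summed to at most 14.5 CPM against at most 26.5 CPM, and B cell markers, with 1 of 4 detected, to at most 26.8 CPM against at most 16.3 CPM. Of the single markers of other cells, the edgeR quasi-likelihood test called 0, with 2 higher and 4 lower at an unadjusted p under 0.05. Sparc was called lower by the edgeR likelihood ratio test, DESeq2 and limma voom, and Klrk1 higher by the edgeR likelihood ratio test and DESeq2. The part of these markers in the members' values was not tested.

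The table listed 21 further rows of the GBP and IRG families. Of these, 10 had a count in some library, 5 passed the filter and 0 were called by edgeR's quasi-likelihood test, with 1 at an unadjusted p under 0.05. That gene, Gm4951, was called by the edgeR likelihood ratio test and DESeq2, and limma voom called 0. Gm4951, an IRG close to Iigp1 on the genome, had 0 counts in each competent library and 133, 171 and 249 counts in deficient tumors. Its deficient mean was 59.5 times a floor of 3 counts per library (edgeR adjusted p = 0.236). Gbp8 had 0, 79 and 0 counts against 338, 434 and 173, a log2 fold change of 3.51 ± 2.10 (SE; edgeR adjusted p = 0.84). The row named Gbp6, whose identifier is Gm43302 in GENCODE M21, had 0 counts in each competent library and 5, 94 and 27 in deficient tumors. These 3 of the 10 rows with a count were higher in every deficient library, against 8.03% of all genes with a count.

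Irgq was lower in every deficient library, with 102, 288 and 147 counts against 70, 29 and 15 and a log2 fold change of -2.30 ± 1.61 (SE; edgeR adjusted p = 0.936). Gbp9 had 0, 269 and 0 counts against 149, 72 and 224. Gm12250, which RefSeq lists as Irgb10, had 0, 75 and 0 counts against 256, 168 and 30. In both the groups overlapped through competent library 2. Tgtp2, 9930111J21Rik2, Gm5431 and Irgc1 each had counts in 1 or 2 deficient libraries, of at most 85, and 9930111J21Rik2 (2 counts) and Irgc1 (13 counts) also in competent library 2. The other 11 rows had none. Tgtp2 shares 100% of the 50-base words of its last 500 bases with Tgtp1, so that reads of either gene may not have been assigned.

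Upstream of the members, genes of interferon receptors, JAK-STAT signaling and IRF factors were counted. Of 19, 18 passed the filter, edgeR's quasi-likelihood test called 0, and 3 had an unadjusted p under 0.05, all higher in the deficient group. DESeq2 called 1 of them (Ptpn2), and the edgeR likelihood ratio test and limma voom called 0. Irf7, which amplifies type I interferon responses, had 967, 1689 and 345 counts against 2635, 3610 and 2241, or 169 ± 102 CPM and 458 ± 25.9 CPM (SD, n = 3 each). This was a log2 fold change of 1.44 ± 0.46 (SE; edgeR adjusted p = 0.301). Irf1, the factor through which interferon-gamma induces many GBPs, had 328, 1093 and 276 counts against 2044, 2321 and 744, a log2 fold change of 1.46 ± 0.56 (SE; edgeR adjusted p = 0.412), and the groups overlapped.

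Ptpn2, a phosphatase that acts on JAK and STAT proteins, had 5, 0 and 0 counts against 191, 239 and 219, a log2 fold change of 6.95 ± 2.36 (SE; edgeR adjusted p = 0.357). Its competent mean, 0.266 CPM, lay under the floor of 3 counts per library, so this fitted fold depends on the prior count. Socs3, a feedback inhibitor of cytokine signaling, had a log2 fold change of 0.65 ± 0.32 (SE; edgeR adjusted p = 0.69). In all, 5 of the 19 genes were higher in every deficient library, against 8.03% of genes with a count. Ifng itself had 1, 2 and 0 counts against 0, 0 and 1, at or under the floor of 3 counts in every library, and the other 6 interferon genes listed had 0 counts.

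Downstream of the GBPs, 15 of 16 genes of the caspase-11 and inflammasome pathways were tested and 0 were called by edgeR's quasi-likelihood test, with 2 higher and 1 lower at an unadjusted p under 0.05. DESeq2 called 1 (Zbp1), and the edgeR likelihood ratio test and limma voom called 0. Zbp1, a sensor of nucleic acids that can trigger cell death, had 401, 451 and 246 counts against 1034, 1968 and 958. It was higher in every deficient library, with a log2 fold change of 1.70 ± 0.41 (SE; edgeR adjusted p = 0.158). Ninj1, which ruptures the plasma membrane of dying cells, had a log2 fold change of 1.31 ± 0.47 (SE; edgeR adjusted p = 0.376), and Nlrp3, an inflammasome sensor, of 1.0 ± 0.51 (SE; edgeR adjusted p = 0.705). Mefv, which encodes the sensor pyrin, had 943, 681 and 283 counts against 278, 148 and 217, a log2 fold change of -1.51 ± 0.67 (SE; edgeR adjusted p = 0.555).

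The ATG8 conjugation genes and autophagy adaptors, which help load GBPs and IRGs onto vacuoles, were all tested. Of 16, 8 had a positive and 8 a negative fold change, edgeR's quasi-likelihood test called 0, and 1 had an unadjusted p under 0.05. That gene was Atg3, the enzyme that passes ATG8 proteins to lipid, with 268, 156 and 116 counts against 1063, 1006 and 177 and a log2 fold change of 1.91 ± 0.72 (SE; edgeR adjusted p = 0.395). Its groups overlapped. The ATG8 proteins Gabarapl1 and Gabarap had log2 fold changes of 0.78 ± 0.42 and 0.44 ± 0.33, and the adaptor Tax1bp1 of -0.85 ± 0.55 (SE). Some GBPs are prenylated and need this lipid for membrane binding. Of 11 prenylation enzymes and chaperones 9 were tested, 0 were called by edgeR's quasi-likelihood test and 0 had an unadjusted p under 0.05. In these last 2 lists the edgeR likelihood ratio test, DESeq2 and limma voom called 0 as well. Arhgdib and Arhgdia, which hold prenylated GTPases in the cytosol, had log2 fold changes of 0.86 ± 0.45 and 0.83 ± 0.64, the protease Zmpste24 of 2.77 ± 2.55, and Rabggtb, a subunit of a prenyl transferase, of -0.47 ± 0.80 (SE).

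**Figure D4:**
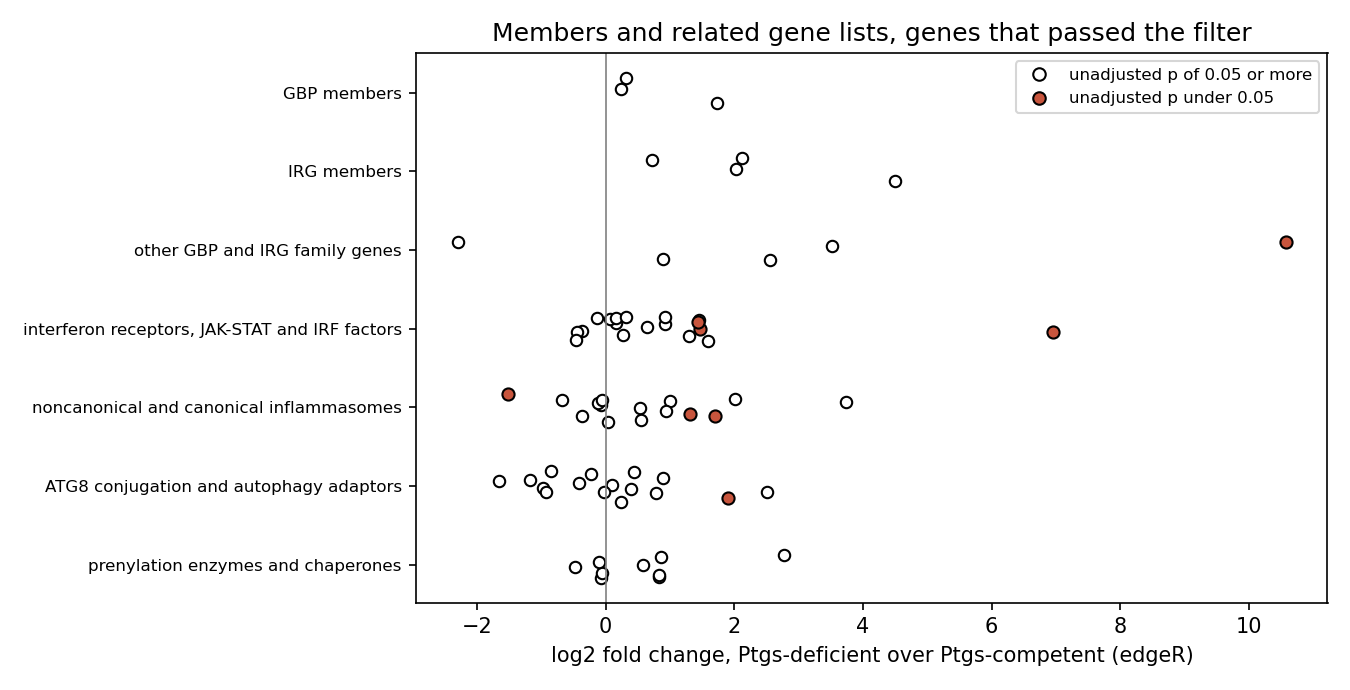
Fold changes of the genes that passed the filter in the GBP and IRG members and in related lists, on the horizontal axis as log2 of deficient over competent tumors, 1 point per gene and filled points at an unadjusted p under 0.05. No point is a call by edgeR's quasi-likelihood test, the members run from 0.23 to 4.50, and the point at 10.58 (Gm4951) compares with libraries that all had 0 counts and depends on the prior count.

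The genes outside these families that followed the tested members most closely were sought over the 6 libraries. The measure was the root mean square distance on the log2 CPM scale from the mean profile of the 7 tested members, each centered on its own mean. Of 8781 genes, with a median distance of 1.71, the nearest were Naaa (0.215), Nrp1 (0.273), Gas6 (0.298), Abcg1 (0.323) and Gltp (0.360). Naaa, a lysosomal amidase, had 237, 612 and 154 counts against 701, 3712 and 1805. Gas6, a ligand of TAM receptor kinases, had 2756, 5057 and 1443 against 6760, 17877 and 8480. Like the members' mean profile, both were lowest in competent library 3 and highest in deficient libraries 2 and 3.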

How the data were processed

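RNA of sorted TAMs was read with QuantSeq FWD, which sequences the 3′ end of polyadenylated transcripts. The authors deposited raw counts per gene in 1 table of 6 libraries. They trimmed reads with BBDUK, fqtrim and cutadapt, aligned them to GRCm38 with STAR and counted them with featureCounts, so that reads shared by close paralogs can be lost or split. Tool versions, strand setting and handling of multimapping reads are not given in the sources used here. The study's methods name a release of the GRCm38 annotation, but 17843 GENCODE M21 genes have identifiers above the highest in the table, and whether the table follows the named release was not settled. PCR copies cannot be told from separate molecules. Gene positions come from GENCODE M21, a later annotation than the table's, and promoter sequences from RefSeq (GRCm38.p6).

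The fit across all genes was made with edgeR 4.0.16 under R 4.3.3. Genes were kept by filterByExpr (minimum count 10, minimum total 15), scaled by TMM and compared by the two-sided quasi-likelihood test with Benjamini-Hochberg adjustment over 8793 genes. Calls needed an adjusted p of 0.05 or lower and an absolute log2 fold change of 1.5 or more, the thresholds of the study. SE is the absolute log2 fold change over the square root of F. Ratios of group means used a pseudocount of 1 CPM. The step was also run on simulated counts with much less spread than these libraries. That run therefore cannot show which changes could be detected here. Alternatives were the likelihood ratio test, DESeq2 1.42.0, limma 3.58.1 voom with quality weights, 2 other scalings, 2 other filters, a replicate block and leaving out each library. Levels are TMM-scaled CPM as mean ± SD.

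The members and lists were chosen with earlier results of these data known. Named by rule were all members, other GBP and IRG genes with a count, Ptgs1, Ptgs2, Ifng, up to 4 genes per pathway list with the smallest p, and the 5 nearest profiles.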

Additional observations from a re-analysis of the deposited data

How the results depend on the processing

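The number of members called stayed at 0 under every alternative except the fit without a filter beyond a count in any library, which called 1 (Gbp2). Leaving out each library in turn gave 0 to 0. The median of the 10 members, 1.82, ranged from 1.07 to 2.38 when a library was left out and was 3.23 as fitted by limma voom with quality weights and no filter. With the filter that fit shifted the median of all genes to 0.39. Gbp5 ranged from -0.67 (reversed, without Ptgs-deficient replicate 2) to 0.85 when a library was left out, and no other tested member changed sign. The 19 genes called over the transcriptome became 241 by the edgeR likelihood ratio test (136 higher, 105 lower), 328 by DESeq2 (173 higher, 155 lower), 123 by limma voom (63 higher, 60 lower) and 252 without the filter (122 higher, 130 lower). They ranged from 0 to 25 when a library was left out, with 0 without Ptgs-competent replicate 1, 11 without Ptgs-competent replicate 2, and 2, 4 and 3 without Ptgs-deficient replicates 1, 2 and 3. The cause was not tested. Samples with the same replicate number did not deviate together (correlations of -0.048, -0.023 and -0.021), so the numbers were not taken to pair them. With a replicate block 77 genes were called (49 higher, 28 lower), 0 members were called and the members' median was 2.21. A count of 0 allows up to 0.647 CPM in the shallowest library. Gbp2, Gbp4 and Irgm1 each had 2 counts or fewer in 4 of 6 libraries, and the part of depth in this was not tested.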

Other observations

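Gene names in the table differ from the later annotation beyond Gbp5 and Gbp6. Of its 39179 identifiers 37607 are in GENCODE M21, and 2772 of these (7.37%) carry another name there. The table's own Gbp2b row, whose identifier is no longer in GENCODE M21, had 0 counts in every library. GENCODE M21 gives Gbp5 an identifier above the highest one in the table, as it does for 17843 genes.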
